A study of Mus musculus with 3 samples.

Results

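Dermal fibroblasts with a constitutively active fibroblast growth factor receptor 3 (Fgfr3) were set against wild-type dermal fibroblasts, using 2 of the 3 mouse expression arrays of the series. The arrays are called FGFR3Act and FGFR3WT, and there was 1 of each. All probe sets with a single gene symbol were eligible, and a gene was read from whichever of its probe sets was brightest by mean log2 signal over all 3. Of 7842 named genes, 5244 had a signal above the floor on FGFR3Act or FGFR3WT and were compared. The floor is the 40th percentile of an array's probe sets, and any lower signal was set to it before the log2 step. It was 123 on FGFR3Act and 121 on FGFR3WT. The other 2598 genes were below the floor on both arrays.

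FGFR3 is a receptor tyrosine kinase that binds fibroblast growth factors together with heparan sulfate. It signals through the adaptor FRS2 to the RAS-ERK and PI3K-AKT cascades, through phospholipase C gamma and through STAT proteins. Activating changes such as the one that causes achondroplasia restrain the proliferation of growth plate chondrocytes, while in several epithelia FGFR3 activity favours growth. Dermal fibroblasts make the collagens, elastic fibres and proteoglycans of the skin, and the series asked how FGFR3 bears on the profibrotic program of fibroblasts.

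The FGFR3Act cells came from mice with the Fgfr3G374Rneo- allele, in which a glycine of Fgfr3 is replaced by arginine (G374R) and the neo cassette is absent, so that the receptor signals without ligand. Wild-type Bl6 mice gave the FGFR3WT cells. The remaining array, FGFR3KO, held cells with the same change but with the cassette retained (Fgfr3G374Rneo+) and no functional receptor, and its signals are given beside the others. All cells grew in fibroblast growth medium without a stated treatment. The strain, age and sex of the mutant mice and the number of animals behind each culture are unknown from the sources used here. The series states n = 3 per group but has 1 column for each, and whether a column is a single culture, a pool or a mean is not given. There is therefore no replicate check on any difference, no p-value is given, and "higher" and "lower" describe these arrays.

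Of the 5244 genes, 217 (4.14%) were 2-fold or more above wild type on FGFR3Act and 251 (4.79%) 2-fold or more below it, 8.92% in all. The side with more genes depended on the scaling. After centring each array on its median log2 signal over probe sets above the floor on all arrays, 292 genes were higher and 160 lower, as this moved the median of all genes by 0.14 on the log2 scale. In the signals as deposited that median was -0.068, 44.3% of genes lay above 0 and 55.7% below, and 72.3% of genes were within 1.5-fold of wild type. The higher genes went further: 28 of them were at least 8-fold apart against 3 of the lower ones. Of the higher genes 80 were below the floor on FGFR3WT, and of the lower genes 45 were below it on FGFR3Act. Folds for these are lower bounds, written "at least". The 20 furthest upward bounds, from Ctss (at least 94.6-fold) to Lcn2 (at least 10.3-fold), are among the 28 genes at least 8-fold higher. Most of these bounds are macrophage or leukocyte markers. The lists used here are described by how many of their members lay past 2-fold, which reads against these shares of 4.14% and 4.79%, and a list with few members past 2-fold is near this background. A gene can stand in several lists. Medians of lists are log2 differences, to be read against the -0.068 of all genes.

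**Figure D1:**
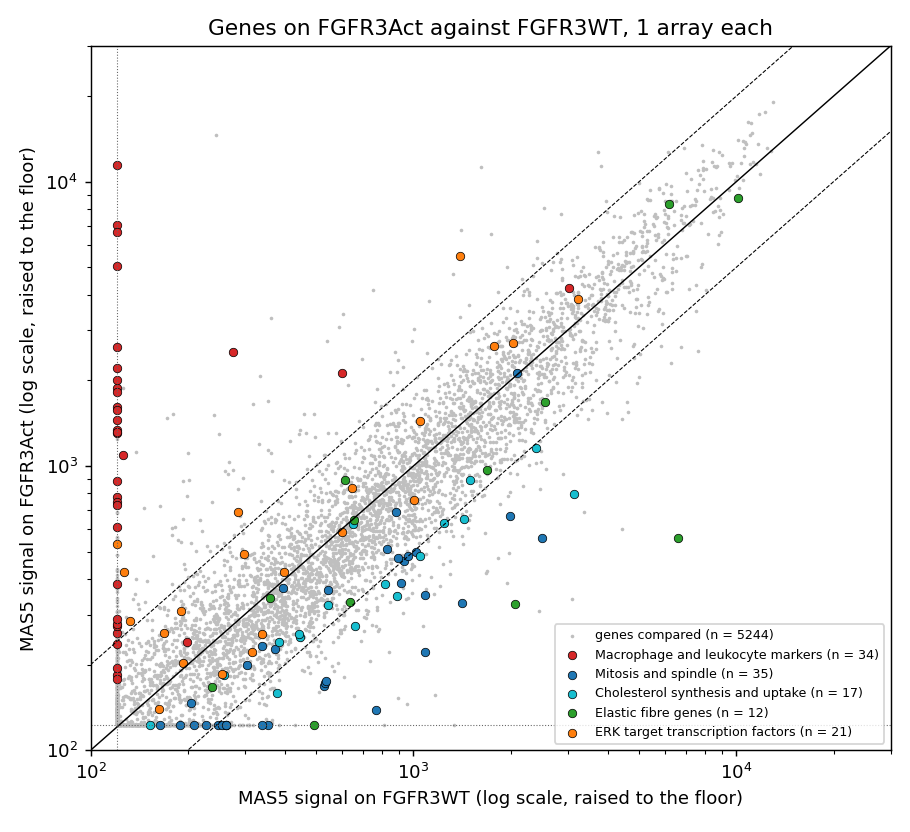
Signal of each compared gene on FGFR3WT (x axis) and FGFR3Act (y axis), both as MAS5 signal on log scales with signals raised to the floor (dotted lines). The solid line marks equal signals, the dashed lines 2-fold differences, and colours mark 5 gene lists. Most macrophage markers (red) sit on the FGFR3WT floor, up to 11427 on FGFR3Act for Ctss, while mitotic (dark blue) and cholesterol synthesis genes (light blue) lie on or below the line of equality apart from Bub3.

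A second probe set for the same gene gives a repeat measurement of the same RNA, though not of another culture. Among 513 genes with at least 2 probe sets above the floor, the median range of their log2 differences was 0.349, and the pooled SD within a gene was 0.411. In 46 genes (8.97%) the probe sets differed by more than 2-fold. Of the 513 genes, 43 were called 2-fold apart. In 39 of these 43 all probe sets above the floor lay in the same direction, and the other 4 were Agrn, Ikbkg, Pdlim7 and Sox4. In 23 of the 43, every probe set above the floor was at least 2-fold apart in that direction. The share of genes at least 2-fold apart was 9.69%, 11.5%, 8.54% and 5.95% in 4 equal groups from the dimmest to the brightest by mean signal. The control probe sets for beta-actin stood at 1.36 (3' end), 1.42 (middle) and 1.55 (5' end) times FGFR3WT, while the Gapdh control (5' end) stood at 0.552 times. The ratio of 3' to 5' signal of 18S ribosomal RNA was 4.78 on FGFR3Act against 2.13 on FGFR3WT, while that of beta-actin was 1.44 against 1.64.

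**Figure D2:**
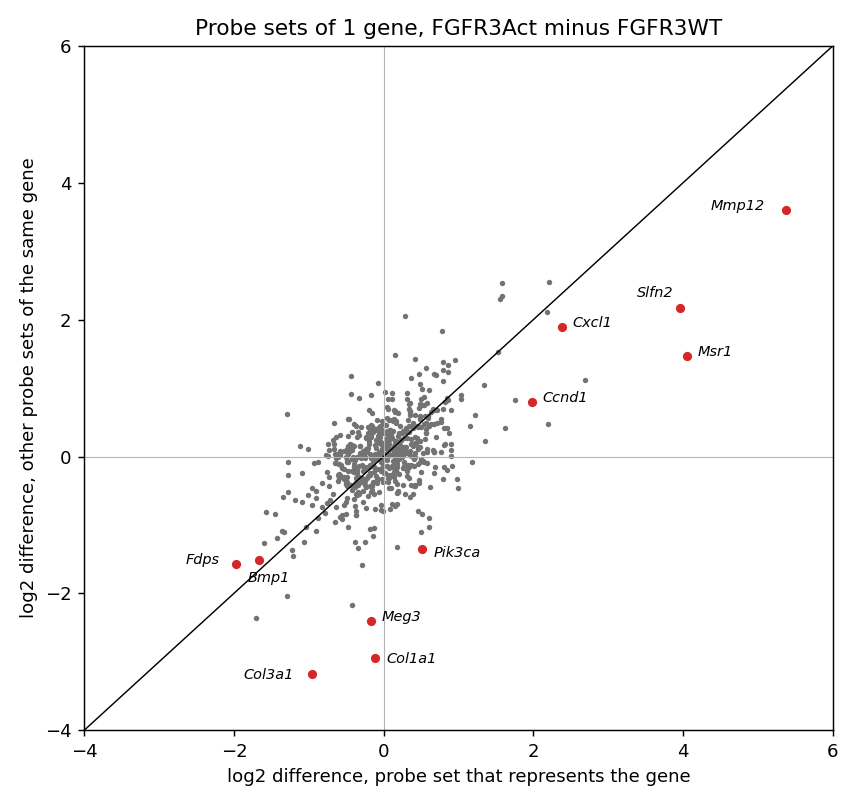
Log2 difference between FGFR3Act and FGFR3WT for the probe set that represents a gene (x axis) and for the other probe sets of that gene (y axis), 578 probe sets of 512 genes, all above the floor on FGFR3Act or FGFR3WT. Points on the diagonal line have equal differences. Fdps, Bmp1, Cxcl1 and Mmp12 were on the same side of 0 with both probe sets, while the second probe sets of Col1a1 and Col3a1 lay at -2.94 and -3.18, far below the first.

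The labelled cell type was checked first. Of 26 fibroblast markers on the array, 23 could be compared, 15 were below wild type and 8 above, and the median log2 difference was -0.35. The mesenchymal surface protein Thy1 had a signal of 6088 on FGFR3WT, 10611 on FGFR3KO and 6948 on FGFR3Act, and decorin (Dcn) 8376 on FGFR3WT, 11663 on FGFR3KO and 11734 on FGFR3Act. Pdgfrb (2.35-fold lower) and Col6a2 (3.85-fold lower) were the markers at least 2-fold lower, and dermatopontin (Dpt), a dermal matrix protein, was 3.33-fold higher. These calls use 1 probe set per gene. The markers Col1a1 and Col3a1 each had another probe set far lower, with log2 differences of -2.94 and -3.18. Summed over the list, fibroblast marker signals were 72640.3 on FGFR3Act, 105516 on FGFR3KO and 82642 on FGFR3WT.

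Macrophage and leukocyte markers were present on FGFR3Act and nearly absent from the other arrays. Their summed signal was 65884 on FGFR3Act against 6529 and 5580.0 on FGFR3KO and FGFR3WT, with 34, 5 and 5 of 40 markers above the floor. All 34 that could be compared were higher on FGFR3Act, 28 by 2-fold or more, with a median log2 difference of 2.99. Of these, 29 were below the floor on FGFR3WT and so could only be higher, and the median over the 5 measured on both arrays was 1.82. Among the defining genes, Ptprc (CD45) at 28.9 on FGFR3WT, 9.94 on FGFR3KO and 29.8 on FGFR3Act and Itgam (CD11b) at 5.98 on FGFR3WT, 7.18 on FGFR3KO and 35.2 on FGFR3Act were below the floor on every array, as were Aif1, Lcp2, Vav1 and Was, whereas Adgre1 (F4/80) was at least 7.33-fold higher and Mrc1, the mannose receptor, at least 6.02-fold higher. With so many markers of another cell type on this array alone, their value is repeated beside the groups they moved with, and their part in those results was not tested. In RNA from a whole culture, fewer cells of a type and less RNA per cell cannot be told apart.

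Most markers of other cell types were below the floor, and those compared included some at least 2-fold apart. Of 21 T, B and NK cell markers 4 could be compared, none 2-fold apart, and of 17 endothelial markers 2, with a summed signal of 4947 on FGFR3Act and 4929.7 on FGFR3WT. Neutrophil markers summed to 2282 against 464, through Lcn2 (at least 10.3-fold higher) and S100a8 (at least 2.53-fold higher). Of 21 keratinocyte markers 6 could be compared, and Perp was the 1 at least 2-fold apart (3.07-fold higher). Among 5 skeletal muscle markers compared, 1 was at least 2-fold higher (Tnni1) and 2 lower (Pax3 and Acta1). Among 9 adipocyte markers 1 was higher (Plin2) and 1 lower (Dlk1), and among 3 mast cell markers 1 was higher (Gata2). Summed signals on FGFR3Act and FGFR3WT were 1112 and 635 for mast cells, 1418 and 2482 for skeletal muscle, 4265 and 4183 for melanocytes and Schwann cells, and 14219.9 and 11796 for adipocytes.

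**Figure D3:**
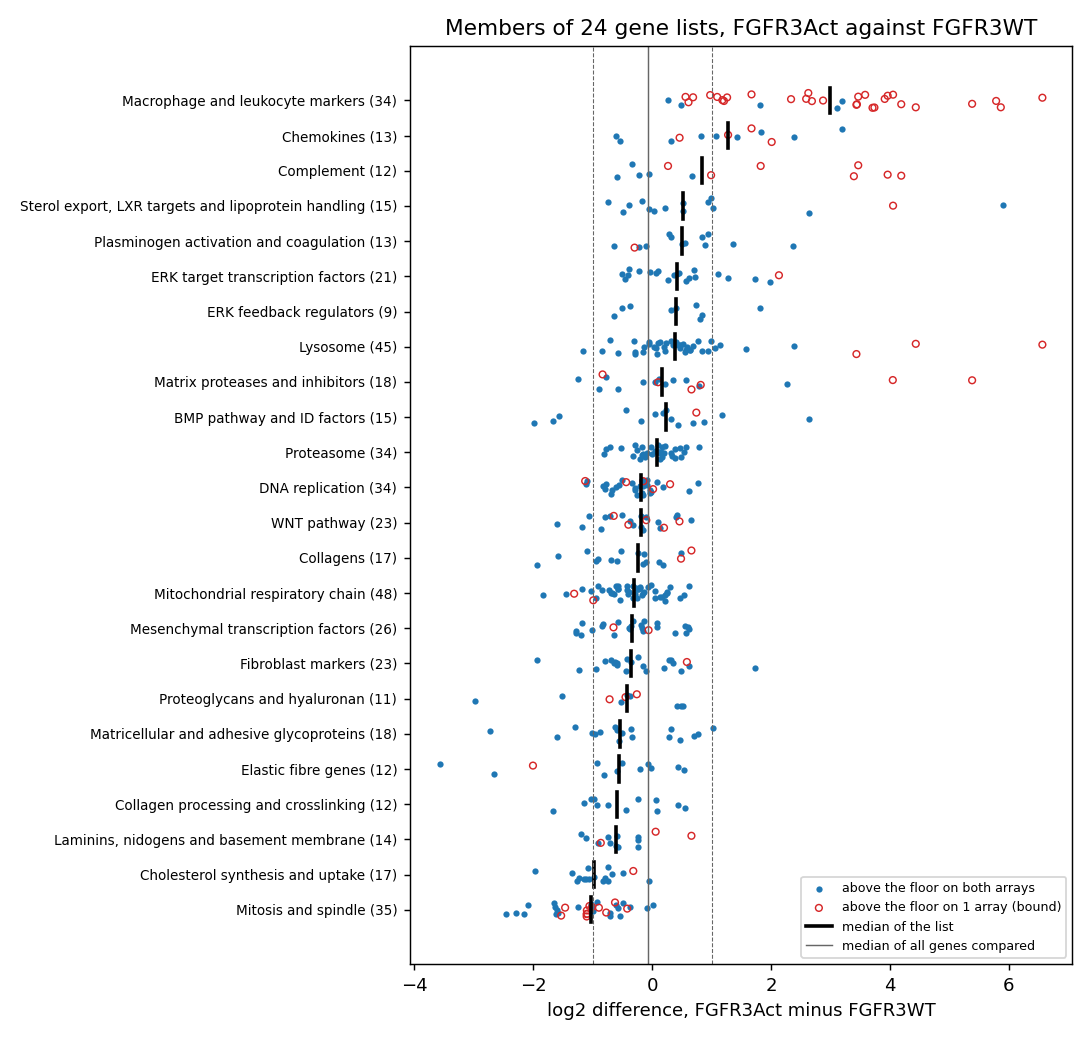
Log2 difference between FGFR3Act and FGFR3WT (x axis) for the members of 24 gene lists, with the number of members compared in parentheses. Filled points are genes above the floor on both arrays, open circles are bounds, short black bars are list medians, the solid vertical line is the median of all genes compared and the dashed lines are 2-fold differences. Macrophage markers (median 2.99) have the highest median and mitotic genes (median -1.03) the lowest of the lists drawn.

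The receptor itself was not measurable. Fgfr3 had a signal of 1.06 on FGFR3WT, 3.76 on FGFR3KO and 2.42 on FGFR3Act, all far under the floor, so the array could not check the genotypes. Of the other receptors, Fgfr2 stood at 1701 on FGFR3WT, 3209 on FGFR3KO and 2032 on FGFR3Act Fgfr1 at 753 on FGFR3WT, 633 on FGFR3KO and 730 on FGFR3Act. Both differed from wild type by less than 1.5-fold on FGFR3Act. The array held 23 genes for FGFs, their receptors and co-receptors, of which 6 could be compared and 1 was at least 2-fold apart. This was Fgf7, the keratinocyte growth factor that fibroblasts secrete, with a signal of 269 on FGFR3WT, 313 on FGFR3KO and 1036 on FGFR3Act, high on FGFR3Act and alike on the other arrays. Fgf18, a ligand with affinity for FGFR3, was above the floor on FGFR3KO (215) and FGFR3WT (163) and below it on FGFR3Act (29.1), a difference of at least 1.33-fold.

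Heparan sulfate chains hold FGFs to their receptors. Of 13 core proteins and enzymes compared, 0 were at least 2-fold higher and 1 lower, and the list median was -0.20. The syndecan Sdc4 was 1.68-fold higher at 2087 on FGFR3WT, 3068 on FGFR3KO and 3500.0 on FGFR3Act. The chain polymerases Ext1 (1.43-fold) and Ext2 (1.46-fold) and the epimerase Glce (1.43-fold) were lower, each by less than 2-fold. Perlecan (Hspg2) was at least 1.82-fold lower. The other basement membrane core protein, agrin (Agrn), was 2.16-fold lower, with a further probe set in the other direction.

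Genes of the kinases and adaptors between receptor and ERK were close to wild type or somewhat below it. Of 17 compared, 1 was at least 2-fold higher, 0 lower, and the median was -0.24. Map2k1, the MEK1 kinase, had signals of 2049 on FGFR3WT, 828 on FGFR3KO and 1918 on FGFR3Act, equal on FGFR3Act and FGFR3WT to within 1.1-fold. The adaptor Grb2 was 1.89-fold lower and the kinase Araf 1.87-fold lower, while Nras was 1.48-fold higher. Mknk1, the ERK-activated kinase that phosphorylates eIF4E, was the member past 2-fold (at least 2.23-fold).

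Feedback inhibitors of the pathway were uneven. Of 9 compared, 6 were above wild type and 3 below, with 1 at least 2-fold higher and a list median of 0.40. The ERK phosphatase Dusp6 had a signal of 275 on FGFR3WT, 89.2 on FGFR3KO and 966 on FGFR3Act, highest on FGFR3Act and below the floor on FGFR3KO. Dusp1 (1.75-fold), Dusp16 (1.67-fold) and the EGF receptor inhibitor Errfi1 (1.79-fold) were higher by less than 2-fold. The Sprouty-family inhibitors Spry4 (1.32-fold higher) and Spred2 (1.57-fold lower) went different ways, and Socs2 (1.29-fold) and Dusp2 (1.42-fold) were lower.

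Among transcription factors and other genes induced by ERK, 5 of 21 were 2-fold or more above wild type and 0 as far below it, and the list median was 0.42. Cyclin D1 (Ccnd1) had a signal of 1394 on FGFR3WT, 1159 on FGFR3KO and 5491 on FGFR3Act with its main probe set, and its dimmer probe set was 1.73-fold higher. The AP-1 subunits were not alike. Fosl1 (3.32-fold) and Jun (2.41-fold) were at least 2-fold higher, Fosb (1.63-fold) and Fos (1.3-fold) were higher by less, and Junb was 1.43-fold lower. Ets1, an ERK-activated ETS factor, was 2.15-fold higher at 133 on FGFR3WT, 67.1 on FGFR3KO and 286 on FGFR3Act, and the EGF-family ligand gene Ereg at least 4.38-fold. The early growth response gene Egr1 (1.07-fold higher) and Myc (1.38-fold lower) were within 1.5-fold of wild type. The macrophage markers (median 2.99) were higher on the same array, and their part in these differences was not tested.

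**Figure D4:**
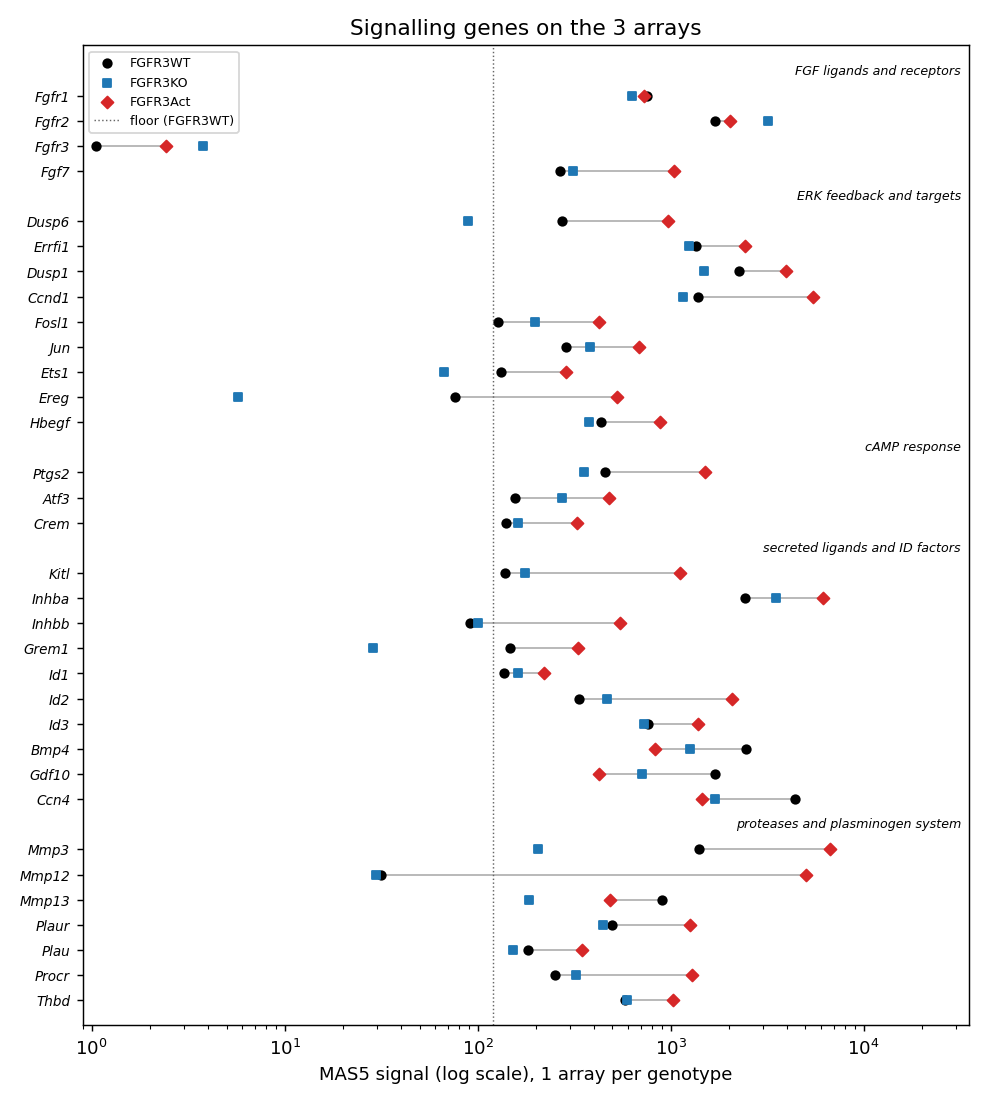
MAS5 signal (x axis, log scale) of signalling genes on FGFR3WT (black circles), FGFR3KO (blue squares) and FGFR3Act (red diamonds), 1 array each, with a grey line from FGFR3WT to FGFR3Act and the FGFR3WT floor dotted. Fgfr3 lies below the floor on all 3 arrays, Dusp6 and Ccnd1 are highest on FGFR3Act, and Bmp4, Gdf10 and Ccn4 are highest on FGFR3WT.

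PI3K and STAT genes gave few large differences. Of 16 PI3K-AKT-mTOR genes, 0 were at least 2-fold higher and 1 lower, and the list median was -0.25. The lower gene was Eif4ebp1, the translation repressor that mTOR inactivates, at 1485 on FGFR3WT, 2043 on FGFR3KO and 644 on FGFR3Act. Ddit4, an mTOR inhibitor induced by stress, was 1.91-fold lower. The catalytic subunit Pik3ca was read differently by its probe sets, 1.43-fold higher with the brighter and 2.56-fold lower with the dimmer. None of 13 STAT and JAK genes was 2-fold apart. Stat3, which signals for the interleukin 6 family, stood at 1282 on FGFR3WT, 1171 on FGFR3KO and 1156 on FGFR3Act, and the shared cytokine receptor Il6st was 1.39-fold lower.

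Genes of the cyclic AMP response were higher in part. Of 19 compared, 3 were at least 2-fold higher and 1 lower, and the list median was 0.13. The inducible prostaglandin synthase Ptgs2 had a signal of 457 on FGFR3WT, 355 on FGFR3KO and 1517 on FGFR3Act, the stress factor Atf3 156 on FGFR3WT, 275 on FGFR3KO and 482 on FGFR3Act, and the CREB family member Crem 140.4 on FGFR3WT, 161 on FGFR3KO and 328 on FGFR3Act. All 3 were highest on FGFR3Act. Dimmer probe sets of Atf3 (117 on FGFR3WT and 161 on FGFR3Act) and Crem (127 on FGFR3WT and 194 on FGFR3Act) were higher by less than 2-fold. The PKA regulatory subunit gene Prkar1b (1.94-fold), the orphan receptor Nr4a1 (1.74-fold) and the anchoring protein gene Akap12 (1.63-fold) were higher by less than 2-fold. Nfil3, a bZIP repressor, was the lower member (at least 2.53-fold).

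Kit ligand (Kitl), which supports melanocytes and mast cells in skin, had a signal of 138 on FGFR3WT, 176 on FGFR3KO and 1121 on FGFR3Act, 8.11-fold higher on FGFR3Act than on FGFR3WT. In the EGF family, 3 of 9 genes could be compared: the ligand genes Ereg and Hbegf (2.02-fold) were at least 2-fold higher, and Egfr was 1.39-fold lower. The PDGF receptor genes Pdgfrb (563 on FGFR3WT, 495 on FGFR3KO and 239.5 on FGFR3Act) and Pdgfra (1.73-fold lower) and the ligand gene Pdgfa (1.46-fold) were all below wild type. The VEGF-family genes Vegfc (1.95-fold), Vegfd (1.5-fold) and Vegfb (1.38-fold) were also lower, each by less than 2-fold. Csf1, the growth factor of macrophages, was close to wild type at 4699 on FGFR3WT, 5277 on FGFR3KO and 4328 on FGFR3Act.

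Insulin-like growth factor genes were near wild type. Igf2 stood at 4323 on FGFR3WT, 9782 on FGFR3KO and 6386 on FGFR3Act and Igf1 at 1424 on FGFR3WT, 2716 on FGFR3KO and 1269 on FGFR3Act, both within 1.5-fold of wild type on FGFR3Act. Of 9 genes compared, 1 was at least 2-fold apart: Igfbp4, an inhibitory IGF-binding protein, was 2.69-fold lower at 1427 on FGFR3WT, 912 on FGFR3KO and 530.5 on FGFR3Act. Igfbp2 (11285 on FGFR3WT, 11801 on FGFR3KO and 11706 on FGFR3Act) was equal on all arrays to within 1.1-fold, and Igfbp3 was 1.28-fold lower.

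TGF-beta and activin genes lay on both sides of wild type, and the sign of their median (-0.092) depended on the scaling. Of 22, 2 were at least 2-fold higher and 2 lower. The higher genes were the activin subunits, Inhba at 2418 on FGFR3WT, 3514 on FGFR3KO and 6171 on FGFR3Act and Inhbb at 91.9 on FGFR3WT, 100.4 on FGFR3KO and 547 on FGFR3Act. The lower genes were the activin receptor Acvr2a (2.26-fold) and the ligand Tgfb2 (2.13-fold). The inhibitory Smad7, itself a TGF-beta target, was 1.79-fold higher, and the activin antagonist follistatin (Fst) 1.62-fold higher. TGF-beta-induced protein (Tgfbi) was 1.5-fold lower and the latent TGF-beta-binding protein Ltbp2 1.75-fold lower. Endoglin (Eng), Tgfb3 and Smad4 were within 1.1-fold of wild type.

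In the BMP branch Bmp4 and Gdf10 were lower and the ID factors higher. Bmp4, a ligand that patterns skin and bone, had a signal of 2466 on FGFR3WT, 1266 on FGFR3KO and 827 on FGFR3Act, and Gdf10 1695 on FGFR3WT, 709 on FGFR3KO and 427 on FGFR3Act, both lowest on FGFR3Act. The dimmer Bmp4 probe set was 1.75-fold lower. The inhibitors of differentiation, usual BMP targets, were all above wild type: Id2 by 6.19-fold at 335 on FGFR3WT, 469.6 on FGFR3KO and 2077 on FGFR3Act, Id3 by 1.83-fold, Id1 by 1.61-fold and Id4 by 1.25-fold. The BMP antagonist Grem1 was 2.25-fold higher. Among the 15 genes, 2 stood 2-fold or more above wild type and 3 as far below it, among them the procollagen proteinase Bmp1.

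Of 23 WNT genes compared, 16 were below and 7 above wild type, 0 were at least 2-fold higher and 3 lower, and the list median was -0.19. The lower members were the WNT-induced matricellular gene Ccn4 at 4419.5 on FGFR3WT, 1707 on FGFR3KO and 1458 on FGFR3Act, the WNT5A co-receptor Ror2 (2.27-fold) and the receptor Fzd2 (2.08-fold). Beta-catenin (Ctnnb1) was 1.32-fold higher, the secreted antagonist Sfrp1 1.57-fold higher and Dkk3 1.81-fold lower. Among 11 Notch and Hedgehog genes the Notch effector Rbpj was 2.13-fold higher and the receptor Notch3, a mural cell and fibroblast gene, 2.42-fold lower. Ptch1, a Hedgehog receptor and target, was 1.62-fold higher at 143 on FGFR3WT, 97.9 on FGFR3KO and 232 on FGFR3Act.

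Of 18 matrix proteases and inhibitors compared, 12 were above wild type and 6 below. However, 6 of the 18 were above the floor on 1 array only, which in practice sets their side. On FGFR3Act 17 of the 18 were above the floor, against 13 on FGFR3WT. Stromelysin 1 (Mmp3), which cleaves proteoglycans and fibronectin, had a signal of 1405 on FGFR3WT, 205 on FGFR3KO and 6733 on FGFR3Act. The macrophage elastase Mmp12 stood at 31.5 on FGFR3WT, 29.9 on FGFR3KO and 5036 on FGFR3Act and Adam8, a leukocyte metalloprotease, at 18.8 on FGFR3WT, 7.46 on FGFR3KO and 1997 on FGFR3Act. These were the 3 at least 2-fold higher. Mmp12 is itself in the macrophage marker list (median 2.99), Mmp12 and Adam8 were below the floor on FGFR3WT, and the part of macrophage RNA in the result was not tested. Mmp11 (2.39-fold) was the 1 at least 2-fold lower, while collagenase 3 (Mmp13, 1.86-fold) and the membrane collagenase Mmp14 (1.71-fold) were lower by less. The inhibitor genes Timp1 (1.72-fold), Timp2 (1.48-fold) and Timp3 (1.16-fold) were all above wild type, Timp1 from 7829 to 13503.

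The urokinase system turns plasminogen into plasmin at the cell surface. Of 13 genes of plasminogen activation and coagulation, 9 were above wild type, 2 by 2-fold or more, with 0 at least 2-fold lower and a list median of 0.50. The urokinase receptor Plaur stood at 495 on FGFR3WT, 449 on FGFR3KO and 1268 on FGFR3Act, and the protein C receptor Procr at 251 on FGFR3WT, 325 on FGFR3KO and 1299 on FGFR3Act. Urokinase (Plau, 1.91-fold), tissue plasminogen activator (Plat, 1.46-fold), thrombomodulin (Thbd, 1.79-fold) and tissue factor pathway inhibitor (Tfpi, 1.86-fold) were higher by less than 2-fold. S100a10, the annexin partner that binds plasminogen, was 1.55-fold lower. Macrophages express several of these genes too, and the macrophage markers (median 2.99) were higher on the same array, and their part in the result was not tested.

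Promoters of the protease and plasminogen genes were searched for the letters that AP-1 binds, as Fosl1 and Jun stood higher on the same array. Whether AP-1 had a part in the differences of these genes was not tested. AP-1 binds the letters TGAGTCA, read TGACTCA on the other strand. In the RefSeq windows from 250 bases before to 50 after a gene's start (GRCm38.p6), these letters were found on either strand in 5.20% of all promoters and 4.13% of those of genes compared. They were in 17 of 212 promoters (8.02%) of genes at least 2-fold higher and in 5 of 232 (2.16%) of genes at least 2-fold lower. Of 7 plasminogen and coagulation genes with a promoter in the table, 5 had a match: Anxa2, F2r, F3, Plaur and Procr. Among 14 protease and inhibitor genes with a promoter in the table, 5 had a match: Adam19, Mmp3, Mmp10, Mmp12 and Mmp13. Mmp13 was below wild type on FGFR3Act, while all windows printed here are of genes at least 2-fold higher. A match is a description of the letters and not a measured site. The windows are given 5' to 3' on the gene's strand, with the match in capitals, and positions count from the annotated start, whose base is 1 and which -1 precedes. The first base of the match is at -46 for Mmp3 (chr9:7445572-7445871, + strand), -44 for Mmp12 (chr9:7347124-7347423, + strand), -69 for Plaur (chr7:24462233-24462532, + strand) and -154 for Procr (chr2:155750967-155751266, + strand), and a further annotated start of Mmp12 has none.
Mmp3: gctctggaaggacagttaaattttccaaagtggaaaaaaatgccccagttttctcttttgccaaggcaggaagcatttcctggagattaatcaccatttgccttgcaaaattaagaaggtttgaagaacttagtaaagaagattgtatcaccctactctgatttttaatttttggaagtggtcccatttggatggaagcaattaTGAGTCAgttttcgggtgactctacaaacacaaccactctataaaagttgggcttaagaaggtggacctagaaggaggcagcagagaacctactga
Mmp12: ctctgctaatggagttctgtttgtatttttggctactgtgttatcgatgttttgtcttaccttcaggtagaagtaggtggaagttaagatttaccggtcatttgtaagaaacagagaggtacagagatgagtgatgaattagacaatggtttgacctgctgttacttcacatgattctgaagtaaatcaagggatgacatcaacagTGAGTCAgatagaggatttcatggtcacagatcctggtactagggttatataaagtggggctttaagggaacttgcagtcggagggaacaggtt
Plaur: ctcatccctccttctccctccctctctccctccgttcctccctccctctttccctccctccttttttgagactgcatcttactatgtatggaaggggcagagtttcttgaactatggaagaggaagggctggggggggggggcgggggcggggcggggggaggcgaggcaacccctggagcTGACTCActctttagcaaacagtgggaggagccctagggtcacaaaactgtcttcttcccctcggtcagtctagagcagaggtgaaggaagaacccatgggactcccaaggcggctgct
Procr: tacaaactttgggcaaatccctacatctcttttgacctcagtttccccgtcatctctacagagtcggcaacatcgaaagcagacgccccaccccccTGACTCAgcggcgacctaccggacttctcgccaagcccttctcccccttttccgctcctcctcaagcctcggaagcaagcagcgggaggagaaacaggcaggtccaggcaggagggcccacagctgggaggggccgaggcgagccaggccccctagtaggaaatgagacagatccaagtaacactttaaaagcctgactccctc

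The collagen genes of the dermal fibre network were lower for type VI and VIII, and for type I and III the array gave conflicting readings. Of 17 collagens compared, 0 were at least 2-fold higher and 3 lower, and the list median was -0.24. Col6a2 had a signal of 1829 on FGFR3WT, 2092 on FGFR3KO and 475 on FGFR3Act, Col6a3 7583 on FGFR3WT, 7576 on FGFR3KO and 2531 on FGFR3Act and Col8a1 7508 on FGFR3WT, 7205 on FGFR3KO and 3511 on FGFR3Act, all lowest on FGFR3Act, while Col6a1 was 1.61-fold lower. These chains form the beaded filaments around cells and, for type VIII, short-chain networks. Col1a2 (11799 on FGFR3WT, 18306 on FGFR3KO and 10606 on FGFR3Act) and Col5a2 (8351 on FGFR3WT, 12393 on FGFR3KO and 9423 on FGFR3Act) were within 1.2-fold of wild type.

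The Col1a1 probe sets differed from each other. The probe set that represents Col1a1 read 8475 on FGFR3WT, 12570.2 on FGFR3KO and 7845 on FGFR3Act, 1.08-fold lower on FGFR3Act than on FGFR3WT. The other read 9602 on FGFR3WT, 9553 on FGFR3KO and 1251 on FGFR3Act, 7.67-fold lower, and was above the floor on every array. Col3a1 showed the same kind of split, with 8069 on FGFR3WT, 10066 on FGFR3KO and 4166 on FGFR3Act (1.94-fold lower) for its brighter probe set and 1748 on FGFR3WT, 958 on FGFR3KO and 193 on FGFR3Act (9.04-fold lower) for its dimmer one. With those probe sets in place of the brighter ones, Col1a1 and Col3a1 would stand with the 19 genes at least 4-fold lower. Of all genes with several probe sets, Col1a1 had the widest range (2.83). Which reading holds for the transcript as a whole was not tested, and the parts of the transcripts that the probes cover were not stated in the sources used here.

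Genes that process and crosslink collagen were mostly below wild type. Of 12, 0 were at least 2-fold higher and 3 lower, and the list median was -0.59. Bmp1, which removes the C-propeptide of procollagen, was 3.18-fold lower with its brighter and 2.87-fold lower with its dimmer probe set. Its enhancer Pcolce stood at 5847 on FGFR3WT, 6263 on FGFR3KO and 2646 on FGFR3Act and the procollagen cyclophilin Ppib at 3500.2 on FGFR3WT, 3959 on FGFR3KO and 1715 on FGFR3Act. The collagen chaperone Serpinh1 (1.36-fold), the lysyl hydroxylase Plod3 (1.67-fold) and the galactosyltransferase Colgalt1 (1.97-fold) were lower by less. Lysyl oxidase (Lox), which crosslinks collagen and elastin, was 1.35-fold higher, and the prolyl hydroxylase P4ha2 1.46-fold higher.

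Of the genes above the floor on both arrays, elastin had the largest difference downwards. Its gene Eln read 6604 on FGFR3WT, 7902 on FGFR3KO and 556 on FGFR3Act, the microfibril protein Mfap2 2065 on FGFR3WT, 2195 on FGFR3KO and 327 on FGFR3Act and fibrillin 2 (Fbn2) 493 on FGFR3WT, 743 on FGFR3KO and 70.3 on FGFR3Act, each low on FGFR3Act and alike on FGFR3KO and FGFR3WT to within 1.6-fold. These were the 3 of 12 members at least 2-fold lower, with 0 higher. Other parts of the fibre were nearer wild type: Mfap5 was 1.52-fold lower, the crosslinker Loxl1 1.91-fold lower, and the fibulins Fbln1 (1.02-fold) and Fbln2 (1.15-fold) close to it.

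Small leucine-rich proteoglycans split. Biglycan (Bgn, 1.43-fold) and decorin (Dcn, 1.40-fold) were higher by less than 1.5-fold. Fibromodulin (Fmod), which guides collagen fibril assembly, was at 2439.7 on FGFR3WT, 2579 on FGFR3KO and 308 on FGFR3Act, and lumican (Lum) was 1.34-fold lower. The large hyaluronan-binding proteoglycan versican (Vcan) stood at 1668 on FGFR3WT, 3857 on FGFR3KO and 579.5 on FGFR3Act. Fmod and Vcan were the 2 of 11 members at least 2-fold lower, and the median was -0.42.

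Of 18 matricellular and adhesive glycoproteins, 1 was at least 2-fold higher and 4 lower, and the list median was -0.53. Tenascin C (Tnc), a glycoprotein of wounded and fibrotic skin, was the higher one at 2773 on FGFR3WT, 4316 on FGFR3KO and 5617 on FGFR3Act, and thrombospondin 2 (Thbs2) was 1.63-fold higher. Fndc1 (957 on FGFR3WT, 869.9 on FGFR3KO and 145 on FGFR3Act), Ccn4, Thbs3 (2.47-fold) and Matn2 (2.01-fold) were the lower ones. Periostin (Postn, 1.48-fold), matrix Gla protein (Mgp, 1.95-fold) and SPARC (1.28-fold) were lower by less than 2-fold. Fibronectin (Fn1) was 1.24-fold higher, and the profibrotic gene Ccn2 stood at 8061 on FGFR3WT, 3083 on FGFR3KO and 11101 on FGFR3Act.

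Basement membrane genes were below wild type in 12 of 14 members, 2 by 2-fold or more, and the list median was -0.60. Nidogen 2 (Nid2) was 2.29-fold lower and agrin was named above. The laminin chains Lama2 (1.63-fold), Lama5 (1.67-fold), Lamb2 (1.53-fold), Lamb1 (1.19-fold) and Lama4 (1.19-fold) were all lower by less than 2-fold, as were Col4a1 (1.51-fold) and Col4a2 (1.18-fold). The matrix genes of this and the preceding lists were read on FGFR3Act, where macrophage markers were higher (median 2.99), and their part in the result was not tested. Fibroblast markers as a list were -0.35 in the median.

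Actin cytoskeleton genes were mostly at wild-type level, and the sign of their median (-0.074) depended on the scaling. Of 34, 0 were at least 2-fold higher and 5 lower. Csrp2, a LIM protein of smooth muscle that is bound to actin filaments, was the furthest apart at 1334 on FGFR3WT, 780.5 on FGFR3KO and 83.9 on FGFR3Act. The sarcomeric actin Acta1 (838 on FGFR3WT, 1256 on FGFR3KO and 221 on FGFR3Act) and the enteric smooth muscle actin Actg2 (6744 on FGFR3WT, 9089 on FGFR3KO and 2619.7 on FGFR3Act) were lowest on FGFR3Act, and cofilin 1 (Cfl1) was 2.20-fold lower. Pdlim7 was 2.02-fold lower, with another probe set in the other direction. The myofibroblast actin Acta2 stood at 6145 on FGFR3WT, 10494 on FGFR3KO and 7424 on FGFR3Act, and transgelin (Tagln), tropomyosin 1 (Tpm1) and vinculin (Vcl) were within 1.2-fold of wild type. The cytoplasmic actins Actb (1.28-fold) and Actg1 (1.37-fold) were higher, on an array whose beta-actin controls read 1.36 to 1.55 times FGFR3WT.

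Of 27 integrins, cadherins and other adhesion receptors, 2 were at least 2-fold higher, the tetraspanin Cd151 (844 on FGFR3WT, 917 on FGFR3KO and 2135 on FGFR3Act) and the leukocyte-binding Alcam (at least 2.03-fold). The 3 at least 2-fold lower were the neural cell adhesion molecule Ncam1 (2.08-fold), Mcam (2.49-fold) and the ephrin receptor Ephb3 (at least 2.60-fold). The gap junction gene Gja1 was 1.81-fold higher at 4174 on FGFR3WT, 3939.6 on FGFR3KO and 7571 on FGFR3Act, and Vcam1 1.74-fold higher. Integrin beta 1 (Itgb1) was 1.41-fold higher and integrin beta 5 (Itgb5) 1.64-fold lower.

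Mitotic genes were lower on FGFR3Act across the list. Of 35 compared, 34 were below wild type and 21 at least 2-fold, with 0 at least 2-fold higher and a list median of -1.03. All 35 were above the floor on FGFR3WT and 23 on FGFR3Act. The other 12 were below the floor on FGFR3Act and so could in practice only be lower. The checkpoint protein Bub3, at 2097 on FGFR3WT, 1841 on FGFR3KO and 2116 on FGFR3Act, was the 1 not below wild type. After median centring 33 were below and 12 at least 2-fold lower. Cytokinesis genes were among those past 2-fold: the central spindle kinesin Kif23 stood at 768 on FGFR3WT, 2119.8 on FGFR3KO and 139 on FGFR3Act, anillin (Anln) at 1082 on FGFR3WT, 1716 on FGFR3KO and 221 on FGFR3Act and the cytokinesis exchange factor Ect2 at 529 on FGFR3WT, 1097 on FGFR3KO and 168 on FGFR3Act. These were low on FGFR3Act and high on FGFR3KO. Of the mitotic kinases, Plk1 was 3.04-fold lower, Cdk1 1.89-fold lower, Aurkb 1.64-fold lower and Ttk at least 2.15-fold lower. Of the spindle kinesins, Kif20a (at least 2.89-fold), Kif11 (at least 2.15-fold) and Kif22 (2.04-fold) were lower, and the proliferation marker Mki67 was above the floor on FGFR3WT (263) but not on FGFR3Act (79.7).

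Replication genes were nearer wild type, with 3 of 34 at least 2-fold lower, 0 higher and a list median of -0.19. The lower genes were Rrm1 (2.13-fold), the polymerase delta subunit Pold2 (2.16-fold) and the chromatin factor Uhrf1 (at least 2.19-fold), and after median centring 0 of them stayed past 2-fold. The helicase subunits Mcm2 (1.06-fold higher), Mcm3 (1.27-fold lower) and Mcm7 (1.11-fold lower) were within 1.3-fold, and the S-phase genes Ccne1 (1.71-fold) and Rrm2 (1.53-fold) were higher. G1 regulators differed one by one: Ccnd2, a D-type cyclin, was 2.47-fold higher at 1489 on FGFR3WT, 1283 on FGFR3KO and 3685 on FGFR3Act, and the MYC antagonist Mxd4 2.64-fold and the CDK inhibitor Cdkn2c 2.02-fold lower. The p53 target Cdkn1a was equal on the 3 arrays at 7113 on FGFR3WT, 7088 on FGFR3KO and 7034 on FGFR3Act, and the arrest gene Cdkn2a was 1.86-fold higher.

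Promoters of mitotic genes are shown because this list had the most genes at least 2-fold lower. Many late cell cycle genes carry a cell cycle genes homology region (CHR), the letters TTTGAA or TTCAAA on the other strand, near CCAAT boxes (CCAAT, or ATTGG on the other strand). Of 31 promoters of 28 mitotic genes in the RefSeq table, 25 (80.6%) held the CHR letters and 25 (80.6%) a CCAAT box. The shares were 11.8% and 37.0% among genes compared and 17.9% and 37.4% among all promoters. Among genes at least 2-fold lower as a whole they were 14.7% and 44.4%. No printed CHR match overlaps a CCAAT match. The CHR letters begin at 3 in Kif23 (chr9:61946750-61947049, - strand), at -167 and 5 in Ccnb2 (chr9:70421505-70421804, - strand), at -18 in Cdc20 (chr4:118437294-118437593, - strand) and at 31 in Plk1 (chr7:122159185-122159484, + strand), counted from the annotated start, whose base is 1. Cyclin B2 (Ccnb2) drives entry into mitosis and was 4.48-fold lower, and Cdc20, the activator of the anaphase-promoting complex, 4.27-fold lower. CHR and CCAAT letters are in capitals.
Kif23: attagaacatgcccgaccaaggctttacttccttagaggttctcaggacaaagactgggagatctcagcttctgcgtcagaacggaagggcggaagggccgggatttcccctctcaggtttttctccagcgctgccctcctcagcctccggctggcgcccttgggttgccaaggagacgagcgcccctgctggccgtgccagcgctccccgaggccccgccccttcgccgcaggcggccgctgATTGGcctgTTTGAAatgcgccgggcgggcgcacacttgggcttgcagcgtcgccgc
Ccnb2: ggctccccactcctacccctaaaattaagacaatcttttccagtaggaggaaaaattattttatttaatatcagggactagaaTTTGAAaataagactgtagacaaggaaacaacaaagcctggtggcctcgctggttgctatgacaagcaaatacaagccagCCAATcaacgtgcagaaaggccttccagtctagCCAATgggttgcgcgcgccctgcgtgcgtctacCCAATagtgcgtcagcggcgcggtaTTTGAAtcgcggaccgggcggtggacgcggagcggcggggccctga
Cdc20: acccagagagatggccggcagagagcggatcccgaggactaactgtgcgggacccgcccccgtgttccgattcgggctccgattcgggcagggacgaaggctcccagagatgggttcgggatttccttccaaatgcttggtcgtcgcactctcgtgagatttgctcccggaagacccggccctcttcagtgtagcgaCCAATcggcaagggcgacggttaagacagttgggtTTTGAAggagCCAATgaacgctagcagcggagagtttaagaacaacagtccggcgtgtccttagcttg
Plk1: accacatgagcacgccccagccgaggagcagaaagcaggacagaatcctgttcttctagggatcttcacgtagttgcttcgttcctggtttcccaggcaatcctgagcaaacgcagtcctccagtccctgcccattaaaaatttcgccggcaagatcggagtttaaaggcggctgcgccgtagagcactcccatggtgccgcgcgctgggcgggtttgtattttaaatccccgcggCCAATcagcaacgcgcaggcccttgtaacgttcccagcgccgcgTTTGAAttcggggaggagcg

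Other letters were searched in the same windows, on both strands. TGACGTCA, the cyclic AMP response element, was in 2 of 35 promoters of the cyclic AMP list (5.71%), those of Prkar1a, against 2.99% of promoters of genes compared and 1.79% of all. TCACCCCAC, or GTGGGGTGA on the other strand, which sterol regulatory element-binding proteins bind, was in 1 of 18 promoters of the cholesterol list (5.56%), that of Hmgcs1, against 0.598% and 0.551%. CCGGAAGT, or ACTTCCGG, for ETS factors, was in 0 of 14 promoters of the ERK targets against 8.35% and 3.89%, and the core of the antioxidant response element in 1 of 45 of the redox list (2.22%), that of Txnrd1, against 2.45% and 3.04%. CCAAT letters were in 15 of 18 promoters of the cholesterol list (83.3%).

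**Figure D5:**
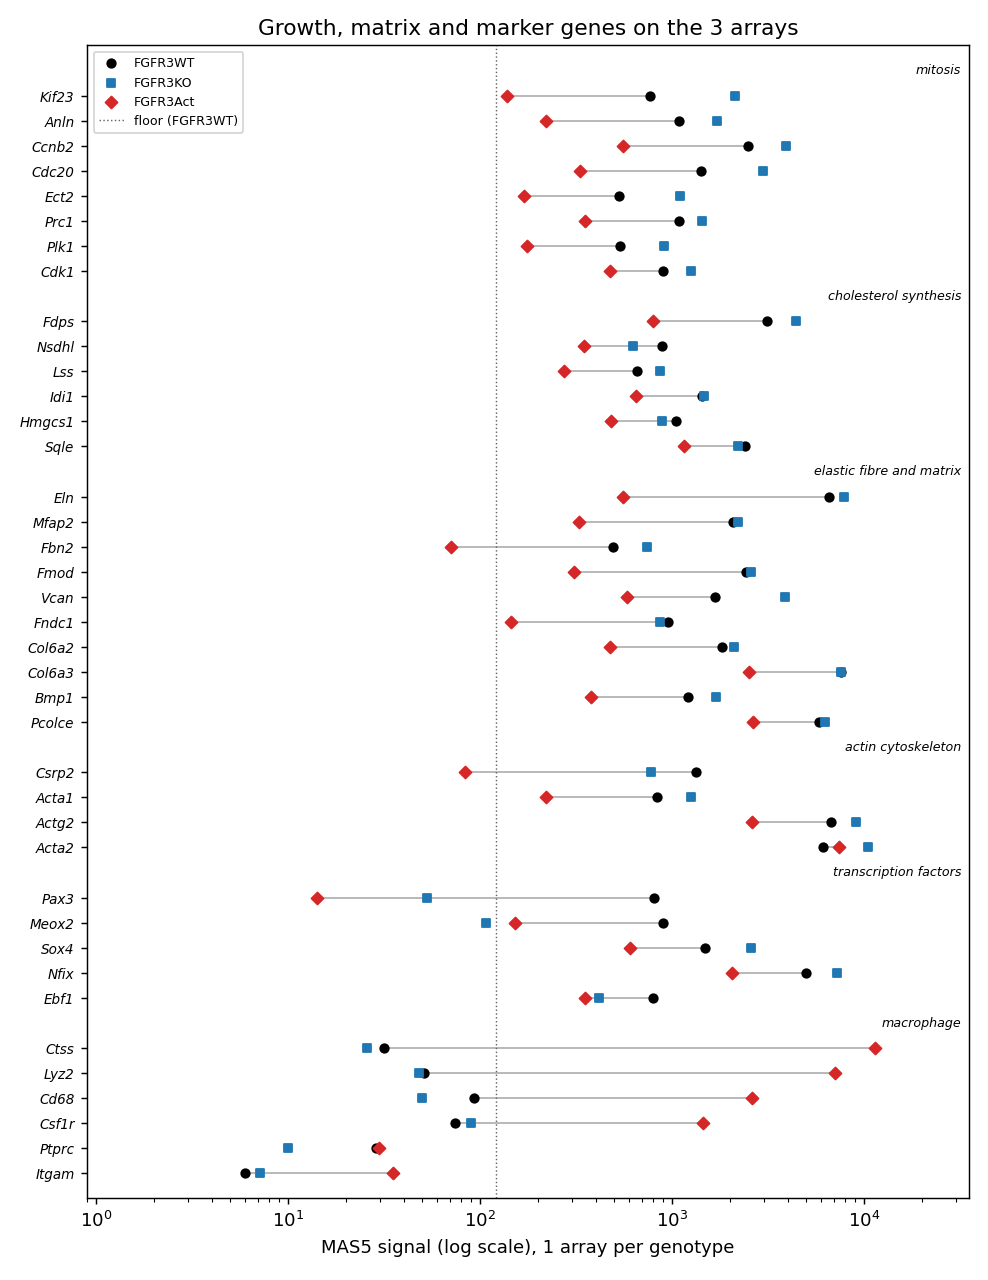
MAS5 signal (x axis, log scale) of mitotic, cholesterol, matrix, actin, transcription factor and macrophage genes on FGFR3WT (black circles), FGFR3KO (blue squares) and FGFR3Act (red diamonds), 1 array each, with a grey line from FGFR3WT to FGFR3Act and the FGFR3WT floor dotted. The 8 mitotic genes shown are lowest on FGFR3Act and highest on FGFR3KO, Pax3 and Meox2 are highest on FGFR3WT, and Ptprc and Itgam lie below the floor on all 3 arrays.

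Cholesterol synthesis was lower at nearly every step. All 17 genes compared were below wild type in the signals as deposited and 16 after each of the 3 other scalings, as Ebp changed side. Of the 17, 8 were at least 2-fold lower, or 4 after median centring, and the median was -0.99. Early steps were represented by Hmgcs1 (1044 on FGFR3WT, 887 on FGFR3KO and 482 on FGFR3Act), Mvd (2.36-fold lower) and the isomerase Idi1 (1432 on FGFR3WT, 1467 on FGFR3KO and 649 on FGFR3Act), and the branch point by Fdps (3130.3 on FGFR3WT, 4441 on FGFR3KO and 797 on FGFR3Act). Both Fdps probe sets were lower, by 3.93-fold and 2.97-fold. Squalene and later steps included Sqle (2.09-fold), Lss (2.39-fold), Msmo1 (2.12-fold) and Nsdhl (2.55-fold), all lower, while Ebp was within 1.1-fold of wild type. The regulator Srebf1 was 1.68-fold lower. Of 15 fatty acid genes, 11 were below wild type and 0 were 2-fold lower, and the list median was -0.15. The desaturase Fads1 (1.73-fold) and the elongase Elovl6 (1.57-fold) were lowest, Scd1 was 1.11-fold lower, and Acsl4 (2.10-fold higher) was the 1 past 2-fold.

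Genes that export or store sterols stood on the other side. Of 15, 4 were at least 2-fold higher and 0 lower, and the list median was 0.51. Apolipoprotein E (Apoe) had a signal of 245 on FGFR3WT, 81.8 on FGFR3KO and 14585 on FGFR3Act, the furthest apart of the genes above the floor on both arrays. Ch25h, which makes 25-hydroxycholesterol, stood at 241 on FGFR3WT, 168 on FGFR3KO and 1505 on FGFR3Act, and the scavenger receptor Msr1 at 29.9 on FGFR3WT, 57.3 on FGFR3KO and 2003 on FGFR3Act. The sterol exporter Abcg1 was 2.02-fold higher and Abca1 1.99-fold higher. Outside that list, the lipid droplet protein Plin2 was 2.25-fold higher at 1823 on FGFR3WT, 1192 on FGFR3KO and 4099 on FGFR3Act. Macrophages are known to express these genes, and their markers (median 2.99) were higher on this array, and their part in the result was not tested.

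Lysosomal genes were above wild type in 34 of 45 members, 7 by 2-fold or more and 1 at least 2-fold lower, and the list median was 0.39. Cathepsin S (Ctss), Cd68 and Laptm5, all leukocyte-rich, were above the floor only on FGFR3Act. Of the cathepsins above the floor on all 3 arrays, Ctsc stood at 318 on FGFR3WT, 371 on FGFR3KO and 1652 on FGFR3Act, Ctsb at 3804 on FGFR3WT, 4175 on FGFR3KO and 11339.9 on FGFR3Act and Ctsd at 6149 on FGFR3WT, 6661 on FGFR3KO and 12727 on FGFR3Act. The saposin precursor Psap was 1.98-fold higher, acid lipase (Lipa) 1.92-fold higher and cathepsin K (Ctsk) 1.39-fold higher, while the iduronidase gene Idua was 2.24-fold lower. Macrophage markers (median 2.99), which include Ctss, Cd68 and Laptm5, were higher on the same array, and their part in the result was not tested. The MHC class I genes H2-K1 (1.59-fold) and H2-D1 (1.59-fold) were higher, and none of 14 antigen presentation genes was 2-fold apart.

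Among 12 complement genes compared, 7 were below the floor on FGFR3WT, and all those past 2-fold were among these 7. The 5 of 12 members at least 2-fold higher were C1qa, C1qb and C1qc, the chains of the recognition protein C1q, the receptor C3ar1 (at least 10.5-fold) and properdin (Cfp, at least 3.54-fold), all below the floor on FGFR3WT. C1ra (1.04-fold) and the C1 inhibitor Serping1 (1.17-fold), both fibroblast products, were within 1.2-fold of wild type, and clusterin (Clu) was 1.5-fold lower. Counting only the 5 members above the floor on both arrays, the median turned from 0.83 to -0.23. C1qa, C1qb and C1qc are also on the macrophage marker list (median 2.99), and the part of macrophage RNA in the result was not tested.

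Chemokines were higher on FGFR3Act in 11 of 13 members, 8 by 2-fold or more, with 0 at least 2-fold lower and a list median of 1.28. The neutrophil chemokines Cxcl1 (589 on FGFR3WT, 1122 on FGFR3KO and 3071 on FGFR3Act) and Cxcl5 (1326 on FGFR3WT, 2042 on FGFR3KO and 4725 on FGFR3Act) and the monocyte chemokines Ccl2 (2857 on FGFR3WT, 3676 on FGFR3KO and 7709.8 on FGFR3Act) and Ccl7 (2173 on FGFR3WT, 1632 on FGFR3KO and 4561 on FGFR3Act) were well above the floor on all 3 arrays. Ccl9 stood at 276 on FGFR3WT, 121 on FGFR3KO and 2514 on FGFR3Act, while Ccl3 (at least 4.03-fold), Ccl6 (at least 3.18-fold) and Ccl8 (at least 2.42-fold) were above the floor on FGFR3Act alone. Cxcl12, the homeostatic fibroblast chemokine, was 1.24-fold higher, and Cx3cl1 1.52-fold lower. Macrophage markers (median 2.99) were higher beside them, and their part was not tested.

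Among 17 cytokine and acute-phase genes, 3 stood 2-fold or more above wild type and 0 as far below it. Serum amyloid A3 (Saa3) stood at 1741 on FGFR3WT, 2545 on FGFR3KO and 6555 on FGFR3Act, the interleukin 1 receptor antagonist Il1rn at 178 on FGFR3WT, 435 on FGFR3KO and 605 on FGFR3Act, and the siderophore-binding Lcn2 at 41.4 on FGFR3WT, 87.1 on FGFR3KO and 1249 on FGFR3Act. Interleukin 6 (Il6) was 1.59-fold higher and the pentraxin Ptx3 1.12-fold higher. The array held 26 cytokine and chemokine receptors that could be compared, 3 at least 2-fold higher and 1 lower. Csf2rb2 was furthest up, at 48.5 on FGFR3WT, 83.1 on FGFR3KO and 339 on FGFR3Act. Ccr1 stood at 16.7 on FGFR3WT and 309.5 on FGFR3Act. Both were above the floor only on FGFR3Act. The interferon gamma receptor Ifngr2 was 2.22-fold higher, and the interleukin 4 and 13 receptor chains Il13ra1 (at least 2.22-fold) and Il4ra (1.84-fold) were lower. Macrophage markers (median 2.99) were higher on the same array, and their part was not tested. In the prostaglandin group, with 3 of 12 at least 2-fold higher, Ptgs2 was joined by the receptor Ptger4 (195 on FGFR3WT, 347 on FGFR3KO and 454 on FGFR3Act) and by Pla2g7 (at least 3.41-fold), a macrophage phospholipase. NF-kB pathway genes were near wild type apart from Ikbkg (2.28-fold higher), which had another probe set in the other direction.

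Interferon-inducible genes lay on both sides of wild type. Of 30, 6 were at least 2-fold higher and 0 lower, while 17 were below wild type, or 15 after median centring, and the median was -0.16. Ifit2 (201 on FGFR3WT, 54.0 on FGFR3KO and 1107 on FGFR3Act), Ifit3 (446 on FGFR3WT, 206 on FGFR3KO and 1334 on FGFR3Act) and Rsad2 (at least 2.84-fold) were higher, while Ifit1 (1.60-fold), Isg15 (1.54-fold), Ifitm3 (1.63-fold) and the interferon-signalling factor Irf9 (1.87-fold) were lower. The p200-family genes Ifi204 (261 on FGFR3WT, 518 on FGFR3KO and 963 on FGFR3Act) and Ifi202b (2.80 on FGFR3WT, 2.46 on FGFR3KO and 680.4 on FGFR3Act) were higher. Ifi202b varies between inbred strains and is low in C57BL/6 tissue, and the strain of the mutant mice is not given, so strain and allele cannot be told apart for it. It was the 1 at least 2-fold higher of 8 compared genes reported to vary between strains, with 0 lower. Irf8, a myeloid factor, was at least 2.53-fold higher. Macrophage markers (median 2.99) were higher on the same array, and their part in the values of Ifi202b, Irf8 and the other higher genes was not tested.

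Of 26 mesenchymal transcription factors, 19 were below and 7 above wild type, 0 were at least 2-fold higher and 5 lower, and the list median was -0.35. The nuclear factor I genes Nfix (5004 on FGFR3WT, 7266 on FGFR3KO and 2061 on FGFR3Act) and Nfib (597 on FGFR3WT, 566 on FGFR3KO and 259 on FGFR3Act), the early B-cell factor Ebf1 (2.26-fold) and Tead2 (2.02-fold), a partner of YAP, were lower. Sox4 was 2.44-fold lower with its brightest probe set, and another lay in the other direction. Twist1 was 1.57-fold lower and its relative Twist2 1.53-fold higher, while Snai2 was within 1.1-fold of wild type. The YAP gene (Yap1) was 1.47-fold higher.

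Of 20 homeobox and other positional genes, 3 were at least 2-fold higher and 3 lower. Pax3, a neural crest and muscle progenitor factor, had a signal of 809 on FGFR3WT, 52.8 on FGFR3KO and 14.2 on FGFR3Act, and Meox2 898 on FGFR3WT, 107 on FGFR3KO and 152 on FGFR3Act: both were high only on FGFR3WT. Six2 was at least 2.22-fold lower. The higher genes were Hoxb7 (121 on FGFR3WT, 228 on FGFR3KO and 277 on FGFR3Act), Hoxb6 (83.0 on FGFR3WT, 227 on FGFR3KO and 272 on FGFR3Act) and Hoxc8 (59.2 on FGFR3WT, 201 on FGFR3KO and 243 on FGFR3Act). Hoxd8 was 1.84-fold higher, while Hoxa4 was 1.75-fold lower. For Hoxb7, Hoxb6 and Hoxc8 the signal on FGFR3KO was close to that on FGFR3Act. HOX and PAX genes mark body position in fibroblasts, and the skin site of each culture is not given, so site and allele cannot be told apart here.

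Of 6 fetal growth regulators, 1 was at least 2-fold higher and 3 lower, or 1 and 1 after median centring. The chromatin protein Hmga2, high in embryonic mesenchyme, stood at 179.8 on FGFR3WT, 188 on FGFR3KO and 1519 on FGFR3Act. The imprinted gene Mest was at 3101 on FGFR3WT, 2696 on FGFR3KO and 341 on FGFR3Act, Dlk1, an inhibitor of adipogenesis, at 290.4 on FGFR3WT, 658 on FGFR3KO and 142 on FGFR3Act, and the RNA-binding protein Igf2bp1 at 585 on FGFR3WT, 558 on FGFR3KO and 287 on FGFR3Act. The imprinted noncoding RNA Meg3 was read differently by its probe sets, 1.13-fold lower with the one chosen and 5.27-fold lower with the other. Gatm, an enzyme of creatine synthesis, was at least 5.70-fold higher. Of 11 skeletal lineage genes, which FGFR3 is best known to govern through chondrocytes, Runx1 (at least 2.01-fold higher) was the 1 2-fold apart. Runx1 was above the floor only on FGFR3Act, where macrophage markers were higher (median 2.99), and their part in its value was not tested. The osteoclast inhibitor Tnfrsf11b stood at 3887 on FGFR3WT, 1356 on FGFR3KO and 3344 on FGFR3Act.

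Of 12 retinoid genes 3 were at least 2-fold higher and 0 lower. The retinaldehyde dehydrogenase Aldh1a1 had a signal of 1619.8 on FGFR3WT, 306 on FGFR3KO and 11271 on FGFR3Act, 6.96-fold higher on FGFR3Act and lower on FGFR3KO than on FGFR3WT. The retinoic acid-binding protein Crabp1 was at 333 on FGFR3WT, 698 on FGFR3KO and 1191 on FGFR3Act, and the adipokine gene Rarres2 was at least 2.26-fold higher. Hsd11b1, which regenerates active glucocorticoid, stood at 1162 on FGFR3WT, 410.2 on FGFR3KO and 156 on FGFR3Act, and the glucocorticoid-induced Fkbp5 at 452 on FGFR3WT, 354 on FGFR3KO and 192 on FGFR3Act. The thyroid hormone deiodinase Dio2 was 2.03-fold lower. Of 8 steroid and thyroid genes 3 were at least 2-fold lower and 0 higher.

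Among 22 G-protein regulators, ligands and receptors, 2 were at least 2-fold higher and 0 lower. These were Rgs16, a regulator of G-protein signalling, at 361 on FGFR3WT, 533 on FGFR3KO and 3325 on FGFR3Act, and the peptide gene Cck at 173 on FGFR3WT, 101 on FGFR3KO and 1472 on FGFR3Act. Endothelin 1 (Edn1) was 1.39-fold higher, and the thrombin receptor F2r 1.42-fold higher at 7884 on FGFR3WT, 11739 on FGFR3KO and 11178 on FGFR3Act.

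Of 48 respiratory chain genes, 36 were below wild type, 5 by 2-fold or more and 0 at least 2-fold higher, and the list median was -0.31. The lower genes were the complex I subunits Ndufb8 (732 on FGFR3WT, 576 on FGFR3KO and 206 on FGFR3Act), Ndufab1 (2.73-fold) and Ndufv2 (2.03-fold) and the ATP synthase subunits Atp5e (at least 2.49-fold) and Atp5o (2.26-fold). Of 22 cytosolic ribosomal protein genes 5 were 2-fold or more below wild type, led by Rpl10a (2902 on FGFR3WT, 3531 on FGFR3KO and 935 on FGFR3Act) and Rps10 (2.71-fold), while Rps24 (1.33-fold) and Rplp0 (1.05-fold) were above wild type. Many ribosomal protein genes have processed pseudogenes, so single readings among them are uncertain. None of 34 proteasome and none of 34 TCA cycle genes was 2-fold apart.

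Glycolysis and hypoxia genes were mostly near wild type, with lactate dehydrogenase (Ldha) at 10080.5 on FGFR3WT, 13919.7 on FGFR3KO and 14032 on FGFR3Act and hexokinase 2 (Hk2) the 1 of 32 at least 2-fold higher (2.01-fold). The control probe set for Gapdh (5' end) was lower, at 6019 on FGFR3WT, 5478 on FGFR3KO and 3323 on FGFR3Act. The hypoxia-induced gene Ndrg1 was 2.33-fold lower and the pyruvate dehydrogenase kinase Pdk3 2.42-fold lower. Among ER genes, the translocon subunit Sec61b (2.51-fold), Ssr2 (2.08-fold) and the stress pseudokinase Trib3 (2.26-fold) were at least 2-fold lower, and the chaperone Hspa5 was 1.32-fold higher. Heat shock genes had a median of 0.27, with Hsp90aa1 1.65-fold and Hspd1 1.64-fold higher and the co-chaperone Dnajb1 2.34-fold lower.

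Of 39 glutathione and redox genes, 4 were at least 2-fold higher and 4 lower, or 7 and 2 after median centring, and the list median was 0.11. In the signals as deposited the higher ones, all known as targets of the factor NRF2, were the quinone reductase Nqo1 at 138 on FGFR3WT, 201 on FGFR3KO and 399 on FGFR3Act, the glutathione synthesis subunit Gclm at 895 on FGFR3WT, 1269 on FGFR3KO and 2359 on FGFR3Act, thioredoxin reductase (Txnrd1) at 929.8 on FGFR3WT, 1070.0 on FGFR3KO and 2221 on FGFR3Act and sulfiredoxin (Srxn1) at 258 on FGFR3WT, 346 on FGFR3KO and 538 on FGFR3Act. All 4 were highest on FGFR3Act. The iron store Fth1 was 1.90-fold higher and the NRF2 gene Nfe2l2 1.54-fold higher. The lower ones were the peroxidases Gpx3 at 1948 on FGFR3WT, 1462 on FGFR3KO and 388 on FGFR3Act, Gpx7 at 429.8 on FGFR3WT, 494 on FGFR3KO and 80.6 on FGFR3Act and Prdx4 at 2203 on FGFR3WT, 2267 on FGFR3KO and 1083 on FGFR3Act and the transferase Gstt1 (2.06-fold).

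Of 34 p53 and apoptosis genes, 3 were at least 2-fold higher and 0 lower: the caspase 8 inhibitor Cflar at 354 on FGFR3WT, 223 on FGFR3KO and 1138 on FGFR3Act, the anti-apoptotic Bcl2l1 at 862 on FGFR3WT, 1025 on FGFR3KO and 1929 on FGFR3Act and Perp at 629 on FGFR3WT, 554 on FGFR3KO and 1928 on FGFR3Act. Mcl1 was 1.76-fold higher, Bcl2 1.34-fold lower and the p53 targets Mdm2 (1.23-fold) and Ccng1 (1.83-fold) higher by less than 2-fold. The list's median was 0.11.

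Of the 468 genes at least 2-fold apart, 248 were in none of the lists. Angiomotin (Amot), a junction protein that binds YAP, had a signal of 604 on FGFR3WT, 488 on FGFR3KO and 3435 on FGFR3Act, and the dynein light chain gene Dynll2 749.6 on FGFR3WT, 603 on FGFR3KO and 4160.4 on FGFR3Act. Nocturnin (Noct), a clock-regulated gene, stood at 538 on FGFR3WT, 645 on FGFR3KO and 2742 on FGFR3Act, and the ferroxidase ceruloplasmin (Cp) at 354 on FGFR3WT, 418 on FGFR3KO and 1697 on FGFR3Act. These 4 were high on FGFR3Act and alike on the other arrays to within 1.3-fold. The chitinase-like Chil1 was 15.0-fold higher, the RNA- and DNA-binding protein Ybx1 3.42-fold higher at 3715 on FGFR3WT, 5743 on FGFR3KO and 12698 on FGFR3Act, and Ugdh, which makes the glucuronic acid donor of glycosaminoglycans, 2.18-fold higher. The calcineurin inhibitor Rcan1 (3.10-fold), the fuel-switch kinase Pdk4 (3.51-fold) and the peptide-amidating enzyme Pam (4.42-fold) were also higher. The myeloid genes Lilr4b (at least 15.2-fold), Ms4a6c (at least 2.99-fold), Ncf4 (at least 2.67-fold) and Cd93 (at least 3.56-fold) were above the floor only on FGFR3Act.

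On the lower side outside the lists, Nrep, a gene of wound fibroblasts and regenerating neurons, had a signal of 4433 on FGFR3WT, 594 on FGFR3KO and 602 on FGFR3Act, low on both mutant arrays. The snoRNA host genes Snhg6 (3369.7 on FGFR3WT, 2855 on FGFR3KO and 688 on FGFR3Act) and Snhg5 (2.84-fold) were lower. Midkine (Mdk), a heparin-binding growth factor, stood at 309 on FGFR3WT, 810.1 on FGFR3KO and 21.6 on FGFR3Act, and the axonal protein gene Gap43 at 382 on FGFR3WT, 224 on FGFR3KO and 97.1 on FGFR3Act. The centriole duplication kinase Plk4 was 3.91-fold lower, the caveolar protein gene Cavin3 2.15-fold lower and the growth-arrest gene Gas2 3.99-fold lower. The protease inhibitor Slpi was 2.77-fold lower, and the KRAB co-repressor Trim28 2.57-fold lower.

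Of the 60 genes nearest to it in RefSeq order, 30 on each side, 28 were on the array and 20 could be compared. The 1 at least 2-fold lower was Mxd4, 0 were higher, and the median was -0.24. By chromosome, leaving out Y with 1 gene compared, the share of genes at least 2-fold apart ran from 5.77% (chromosome 12) to 13% (chromosome 7). The X-inactivation RNA Xist had a signal of 757 on FGFR3WT, 874 on FGFR3KO and 694 on FGFR3Act and the Y-linked Eif2s3y 266 on FGFR3WT, 96.6 on FGFR3KO and 279 on FGFR3Act, both above the floor on FGFR3Act and FGFR3WT, within 1.1-fold of each other.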

How the data were processed

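Dermal fibroblasts of 3 genotypes were profiled on 1 Affymetrix mouse array column each. The deposited values are intensity signals that the authors computed with MAS5, per the submitters' processing notes, and they were used without further scaling. Whether a signal is a mean of several cultures, and which tool version made it, is not given in the sources used here. Of 9889 probe sets, 9376 were in the platform annotation used, and 9053 with 1 symbol gave 7842 genes. Probe sets with several symbols (323) and 18 controls were left out, and 9041 of the probe sets with 1 symbol matched RefSeq GRCm38.p6. Signals below the 40th percentile of an array were raised to it, and log2 differences were computed in Python 3.11.15 with pandas 2.3.3. With 1 array per group there is no test, and the number of arrays limits the precision. The members and the 71 gene lists were chosen with earlier results of these data known. Genes named are Fgfr3, the 30 furthest apart in each direction above the floor on both arrays, the 20 furthest bounds, and list members past 2-fold with up to 4 others that the list is commonly read from, restricted to those of textbook role; further members were named after their values were seen. The script was tested on simulated data. Other scalings, floors, filters and probe set rules were tried.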

Additional observations from a re-analysis of the deposited data

How the results depend on the processing

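No paired analysis was possible because each group has 1 array, and for the same reason no replicate could be left out. Over 11 alternatives, run for the 100 genes of the rule for the largest differences, 918 values stayed within 1.5-fold of the main one, 99 did not and 0 changed sign. The counts of genes at least 2-fold higher and lower (217 and 251) were 231 and 213 after quantile normalization, 292 and 160 after median centring and 249 and 194 after lowess. They were 458 and 432 with the floor at the 20th percentile and 118 and 140 with it at the 60th, as the floor sets the bounds. Counting genes above the floor on both arrays only, they were 137 and 206. Without the macrophage, lysosome, MHC and complement lists they were 183 and 250. The macrophage marker median (2.99) was 3.66 with the 20th and 2.0 with the 60th percentile, 3.69 with an offset of 50 in place of a floor, and 1.82 over the 5 markers above the floor on both arrays. The complement median turned to -0.23 over genes above the floor on both arrays. With no filter, genes below the floor on both arrays take the ratio of the floors, and the medians of many lists became 0.022. Among these were collagens, proteoglycans, matricellular genes, mesenchymal factors, fetal growth regulators, steroid genes and chemokines. Others were the sterol export, plasminogen, cytokine, prostaglandin, G-protein, EGF family, BMP, cyclic AMP and WNT lists. Under another scaling the median changed sign for the contractile, cytokine receptor, ER, glycolysis, imprinted, NF-kB, retinoid, TCA cycle, TGF-beta and translation lists. Some genes near 2-fold crossed it: after median centring 4 plasminogen genes and 5 p53 and apoptosis genes were at least 2-fold higher, 2 collagens and 3 contractile genes lower.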
